A study of Mus musculus with 4 samples.

Results

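Macrophages and other myeloid cells are recognised by a shared set of genes for surface receptors, adhesion molecules, the oxidant-producing enzyme of phagocytes and the kinases and adaptors that link them. The 43 such genes described here were chosen by name, with earlier results of these data known. Each was found among the 16416 genes of the expression table. They were followed in RNA of 4 cultures grown out of mouse shoulder joint capsule, in a study of the microRNA miR-26a in frozen shoulder. All cultures came from mice whose shoulder had been immobilized 1 week before, were obtained by outgrowth and used at passage 2, and were named synovial fibroblasts in the labels. The wild-type library came from C57BL6/J mice. The other libraries came from miR-26a -/- mice, as untransfected knockout cells, as knockout cells with 10 nM of Silencer Negative Control siRNA and as knockout cells with 10 nM of miR-26a mimic, both transfected with Lipofectamine RNAiMax for 24 h. Each group had 1 library, and the sources used here do not give the number of animals behind a culture or the design of the knockout allele. The mature microRNA was not analysed here, so the genotype was not checked in the libraries.

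As background, the transcription factor PU.1, encoded by Spi1, sets up myeloid identity, and CD45, encoded by Ptprc, marks nearly all white blood cells. Macrophages bind antibody-coated particles through Fc receptors and complement-coated ones through beta-2 integrins. Both receptor classes signal through Src and Syk family kinases and switch on the phagocyte NADPH oxidase. In the joint, macrophages form part of the synovial lining beside fibroblasts, and resident macrophages are known there by scavenger and clearance receptors.

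Levels are given in TPM, a unit of transcript abundance that is corrected for gene length and scaled within each library. Where 4 values are listed, wild type comes first, then knockout, then negative control, then mimic. A ratio is the log2 ratio of 2 libraries on TMM-scaled counts after adding 1 count, with an exact 95% binomial counting interval in parentheses. To be measured, a gene needed 1 CPM (counts scaled to library size) or more in either library of a pair, and it was called when it differed at least 2-fold with an interval that excludes 0. Reads are not independent molecules, so the intervals cover counting error only. Because every group was a single library, differences have no replicate check and no test was run. Directions below compare libraries, not conditions. In bulk RNA, fewer cells of a type and less RNA per cell cannot be told apart.

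The libraries held 18198033, 17598763, 19392655 and 18584404 estimated counts, and the median gene of the table was at 12.2, 10.98, 11.2 and 11.3 TPM. Myeloid genes were abundant in every library despite the fibroblast label. The 43 genes together made up 2.08%, 2.97%, 2.84% and 2.88% of all TPM, and without Lyz2, which dominated the sum, 0.592%, 1.07%, 1.11% and 1.10%. In the wild-type library 34 of the 43 lay above the median gene, and 38, 37 and 38 did in the others. A list of 17 fibroblast markers, among them Col1a1, Col3a1 and Pdgfra, summed to 32974, 16223, 14855 and 17393 TPM, so it was highest in the library where the myeloid genes were lowest. A list of 10 mitosis genes summed to 112, 273, 268 and 239 TPM and was, like the myeloid genes, lowest in the wild-type library. Its median ratio of mimic to untransfected knockout cells was -0.28, against -0.03 for the measured myeloid genes. The part of either list in the results below was not tested.

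**Figure D1:**
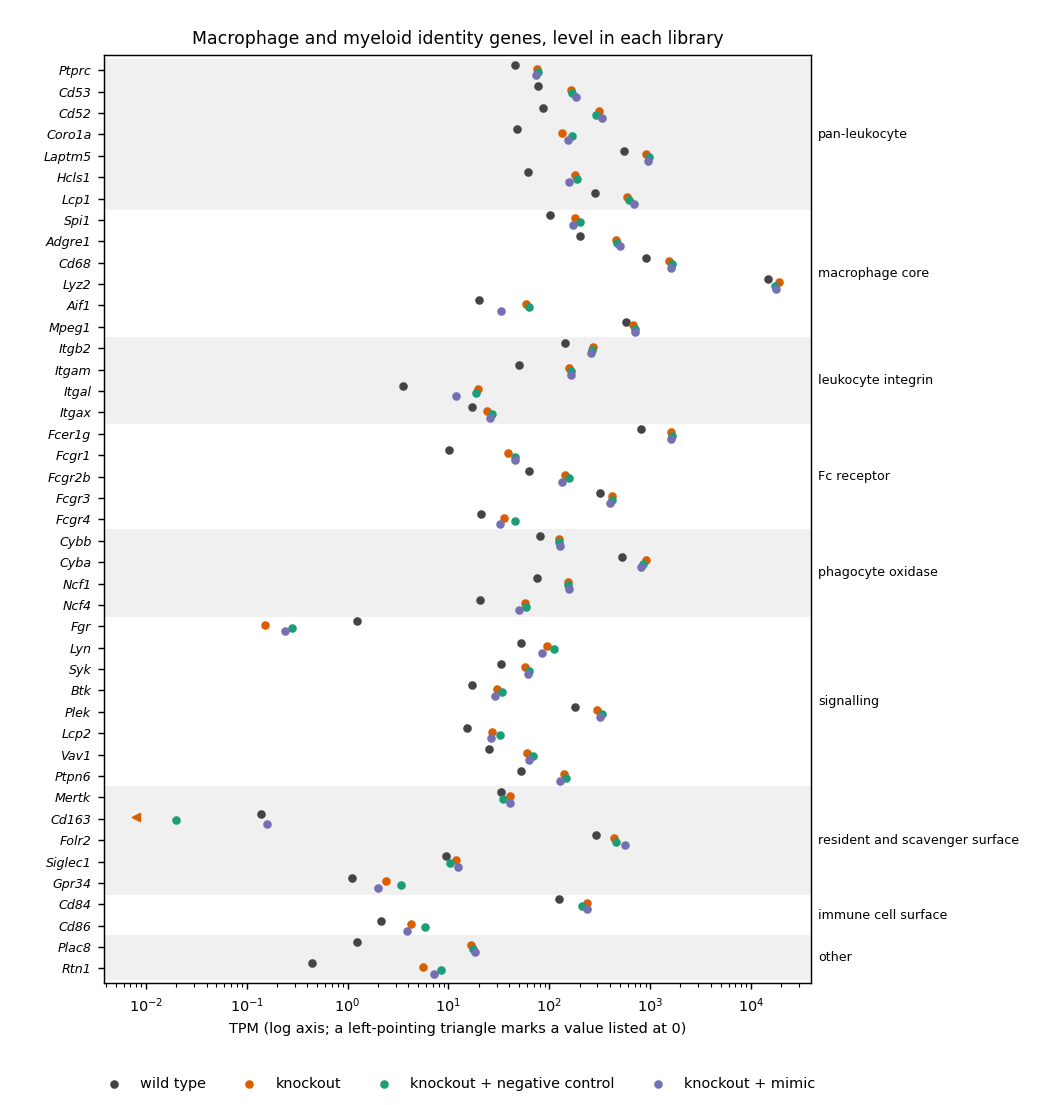
TPM of each of the 43 genes (log axis) in the wild-type, knockout, negative-control and mimic libraries, 1 point per library, grouped by role. The 3 knockout-cell libraries lie close together to the right of the wild-type point for most genes, Fgr lies the other way, and Cd163 is near or at 0 in all.

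Nearly all of these genes were higher in the knockout than in the wild-type library. The call was higher for 23 of 42 measured members and lower for 1, against 5.91% of all 12803 measured genes called higher and 7% called lower. Because the members were chosen with earlier results of these data known, these shares describe the list and test nothing. The median ratio of the members was 1.04, or 2.06-fold, and that of all measured genes was 0.01. The middle of the members spread from 0.86 at the lower quartile to 1.496 at the upper, a width of 0.64, close to the 0.58 of all measured genes but set above 0. The limit of 2-fold fell inside the bulk of the list. Cd84, Lyn and Itgb2 stood just inside it at 2.02, 2.02 and 2.10-fold, and Cyba, Spi1, Lcp2, Btk, Cd68 and Syk just outside it, between 1.88 and 1.96-fold. On deposited TPM, where the median of all genes moved from 0.01 to -0.11, 19 members were at least 2-fold higher, and Cd84, Lyn, Itgb2 and Cd86 no longer were. Gpr34, Plac8 and Rtn1 passed the minimum level through the knockout library alone and Fgr through the wild-type library alone, so their calls follow in part from that minimum.

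**Figure D2:**
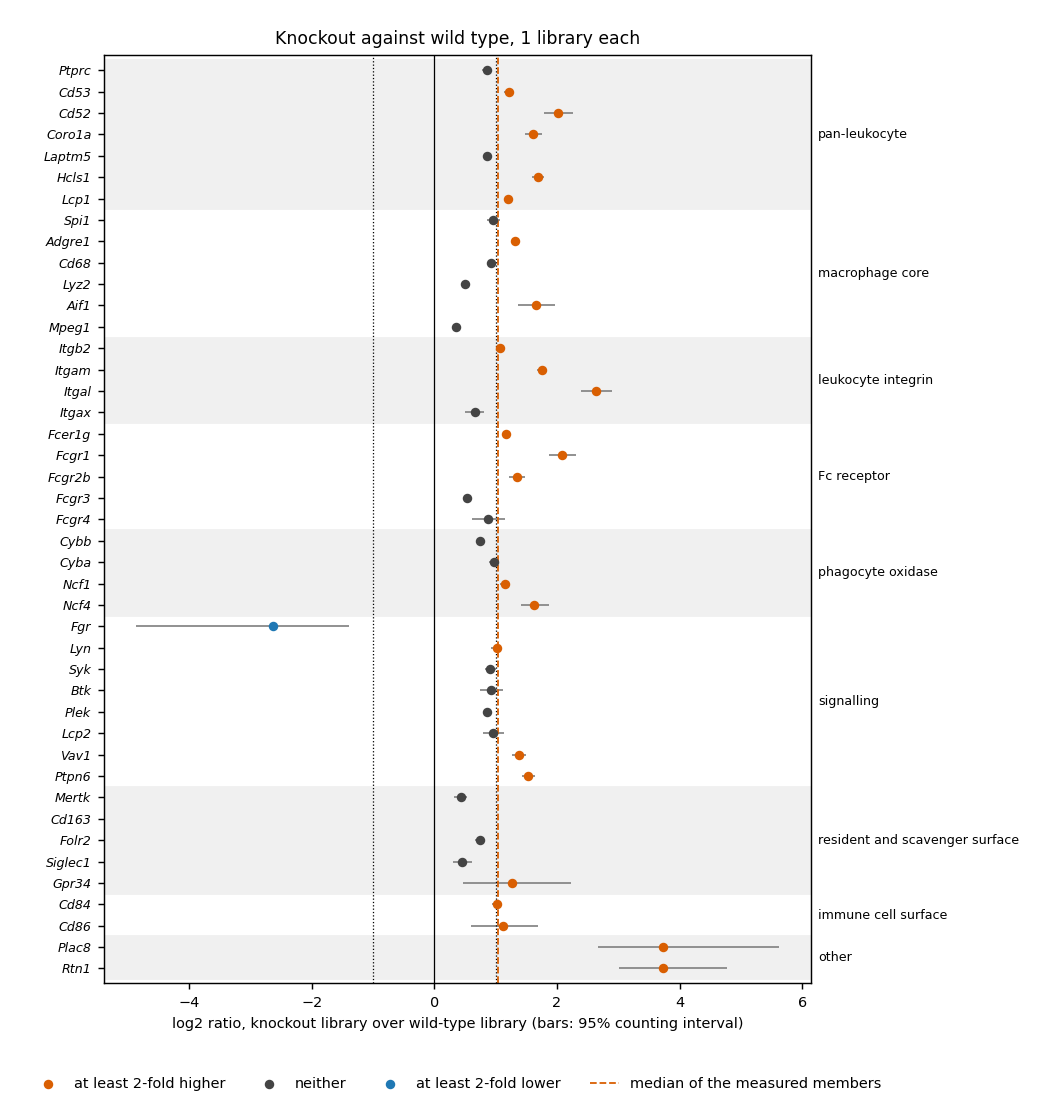
Log2 ratio of the knockout to the wild-type library for the 42 measured genes, with 95% counting intervals as bars. Dotted lines mark 2-fold and the dashed line the members' median of 1.04, and the ratios run from -2.63 for Fgr to 3.73 for Rtn1.

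Genes shared by all white blood cells showed this difference together. Ptprc, the CD45 phosphatase, stood at 45.7, 74.99, 77.8 and 73.2 TPM, and the knockout ratio, here always the ratio of untransfected knockout to wild type, was 0.85 (0.77 to 0.93). Cd52, a small surface glycoprotein, stood at 86.1, 308.5, 289.4 and 334.3 TPM, with a ratio of 2.01 (1.79 to 2.25). Both genes were lowest in the wild-type library, but by different factors, and the 3 knockout-cell libraries were near each other. Coro1a, an actin-binding protein of leukocytes, had 48.0, 133.7, 166.5 and 153.3 TPM, and Hcls1, a cortactin relative of blood cells, had 61.4, 180.5, 186.4 and 157.9 TPM. Their ratios were 1.61 (1.48 to 1.75) and 1.69 (1.58 to 1.79). Both were lowest in wild type and highest in the negative control. The tetraspanin gene Cd53 had 76.7, 162.9, 167.2 and 183.0 TPM, and Lcp1, for an actin-bundling protein, had 282.8, 595.3, 619.9 and 691.1 TPM. Both were also called, at 1.22 (1.14 to 1.30) and 1.20 (1.17 to 1.24). Laptm5, a lysosomal membrane protein with 547.4, 905.4, 968.9 and 954.4 TPM, was not, at 0.86 (0.83 to 0.89). In all, 5 of these 7 genes were called and their ratios ran from 0.85 to 2.01.

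The 6 core macrophage genes ranged widely in their ratio, from 0.35 to 1.66, and 2 of them were called. Lyz2, which encodes lysozyme, was the gene with the highest TPM of the whole table in the wild-type and the knockout library, with 14912.6, 18990.7, 17285.6 and 17807.1 TPM in the 4 libraries and a knockout ratio of 0.49 (0.48 to 0.50). Mpeg1, a pore-forming protein of phagosomes, had 580.6, 678.7, 712.1 and 704.8 TPM and a ratio of 0.35 (0.33 to 0.38), the smallest of the higher members. Cd68, a lysosomal glycoprotein of macrophages, had 904.8, 1553.7, 1649.9 and 1603.7 TPM, with a ratio of 0.92 (0.88 to 0.96). Those 3 intervals do not reach 1, the log2 value of 2-fold. Spi1 itself stood at 101.4, 180.2, 202.4 and 171.8 TPM, with 0.96 (0.85 to 1.07). Adgre1, which encodes the macrophage surface protein F4/80, was called at 1.31 (1.26 to 1.35), with 201.2, 454.1, 472.6 and 506.9 TPM. Aif1, the calcium-binding protein IBA1, was called at 1.66 (1.37 to 1.97). Its values of 20.3, 58.4, 62.7 and 33.5 TPM set the mimic library apart from the other knockout cells, unlike those of Adgre1.

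Among the beta-2 integrins the partner chains lay on both sides of the common chain, with Itgam and Itgal above it and Itgax below. Itgb2, the common CD18 chain, had 142.1, 272.9, 263.8 and 257.8 TPM and a ratio of 1.07 (1.01 to 1.13). Itgam, the CD11b chain of complement receptor 3, had 50.6, 155.4, 165.5 and 163.1 TPM and a ratio of 1.75 (1.67 to 1.82). Itgal, the CD11a chain of LFA-1, had 3.52, 19.6, 18.7 and 12.0 TPM and a ratio of 2.64 (2.39 to 2.90). Itgal was thus scarce per transcript beside Itgam in each library, yet showed the larger ratio. Itgax, the CD11c chain, had 17.1, 24.3, 26.9 and 25.6 TPM and was not called, at 0.66 (0.51 to 0.81). Of the exon bases of Itgam, 3450 of 5024 are shared with another gene model on the same strand, Gm49368, which is not analysed here.

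The 5 Fc receptor genes formed a graded series of ratios from 0.54 to 2.07, and 3 of them were called. Fcgr1, the high-affinity receptor for IgG, had 10.1, 39.1, 46.1 and 46.2 TPM and a ratio of 2.07 (1.86 to 2.30). Fcer1g, the common gamma chain through which activating Fc receptors signal, had 803.4, 1609.5, 1659.7 and 1613.4 TPM, with 1.16 (1.10 to 1.22). Fcgr2b, the inhibitory receptor, had 62.7, 144.4, 157.2 and 134.0 TPM, with 1.34 (1.21 to 1.48). These 3 genes were called. The activating low-affinity receptor Fcgr3, with 317.9, 419.8, 415.2 and 401.7 TPM, had a ratio of 0.54 (0.47 to 0.60). A further activating receptor, Fcgr4, had 21.1, 35.2, 45.6 and 32.2 TPM and a ratio of 0.88 (0.62 to 1.15). The intervals of Fcgr2b and Fcgr3 did not overlap. Estimated counts of Fcgr2b and Fcgr3 had decimals, as did those of Lyz2, Itgax and Lyn. The sources used here do not say how reads were divided, so the share given to each gene is uncertain.

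The phagocyte oxidase was represented by its membrane pair Cybb and Cyba and by the cytosolic subunits Ncf1 and Ncf4, and the cytosolic pair differed more. Ncf4 (p40phox) had 20.5, 58.0, 58.9 and 49.5 TPM and a ratio of 1.63 (1.41 to 1.86), and Ncf1 (p47phox) had 75.4, 153.2, 153.2 and 155.5 TPM and 1.15 (1.07 to 1.24). Cybb (gp91phox) had 81.0, 123.8, 124.4 and 127.1 TPM and 0.74 (0.68 to 0.81). Cyba (p22phox), the most abundant of the 4 at 520.3, 915.6, 853.8 and 810.2 TPM, had 0.97 (0.90 to 1.04). Exons of Ncf1 overlap those of Gtf2ird2 on the opposite strand over 408 bases, and the sources used here do not say whether counting used strand.

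Signalling genes were called for 3 of 8 members and lower for 1. Ptpn6, the phosphatase SHP-1 that acts with inhibitory receptors, had 52.6, 138.4, 147.9 and 127.6 TPM and a ratio of 1.53 (1.43 to 1.64). Vav1, a guanine nucleotide exchange factor of blood cells, had 25.3, 60.4, 69.7 and 62.3 TPM and 1.38 (1.27 to 1.5). The Src family kinase Lyn, with 51.9, 94.8, 110.6 and 85.4 TPM, lay at the limit with 1.01 (0.92 to 1.11). The kinases Syk and Btk, the adaptor Lcp2 and the protein kinase C substrate Plek stood between 0.86 and 0.96 and were not called. Plek was the most abundant of these, at 181.0, 300.2, 336.7 and 315.0 TPM, and Lcp2 the least, at 15.2, 26.96, 32.5 and 26.7 TPM, while Btk had 17.3, 30.1, 33.6 and 28.9 TPM and Syk 33.2, 57.5, 62.2 and 61.5 TPM. Fgr, a further Src family kinase of myeloid cells, was the exception. It was counted 30 times in the wild-type library and 4, 9 and 7 times in the others, a ratio of -2.63 (-4.86 to -1.39), and at 1.23 TPM or less it was among the scarcest of the list.

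Among receptors of resident macrophages, 3 stood at the low end of the list. Mertk, which binds apoptotic cells, had 32.9, 40.5, 34.9 and 41.0 TPM and a ratio of 0.43 (0.32 to 0.54). Siglec1, a sialic acid receptor, had 9.44, 12.0, 10.4 and 12.4 TPM and 0.46 (0.30 to 0.61). Folr2, the folate receptor beta, had 290.8, 440.6, 461.7 and 561.7 TPM and 0.74 (0.66 to 0.82). Each of these 3 intervals lay below the list's median of 1.04. Gpr34, a lysophosphatidylserine receptor, was called on few reads, with 17, 42, 61 and 36 counts and a ratio of 1.27 (0.47 to 2.22). The haemoglobin scavenger receptor Cd163 was counted 5, 0, 1 and 6 times, under the minimum level in every comparison. For a library with 0 counts, 3 counts would allow up to 0.170 CPM.

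The remaining genes included the largest ratios of the list. Rtn1, a reticulon of the endoplasmic reticulum, was counted 13, 183, 289 and 229 times, or 0.44, 5.65, 8.52 and 7.13 TPM, with a ratio of 3.73 (3.02 to 4.76). Plac8, a small cysteine-rich protein, was counted 5, 77, 87 and 82 times, or 1.25, 16.7, 17.7 and 18.2 TPM, with 3.72 (2.67 to 5.62). Both were scarce in the wild-type library, and their ratios were the largest of the 42. The co-receptor Cd84 had 124.9, 234.8, 210.5 and 236.5 TPM and the costimulatory ligand Cd86 had 2.13, 4.28, 5.88 and 3.85 TPM, with ratios of 1.01 (0.95 to 1.08) and 1.12 (0.60 to 1.69).

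Within the knockout cells the transfected libraries differed from the untransfected one by little. No member was called in either direction in the negative control over untransfected cells, where 0.295% of 12532 measured genes were higher and 0.718% lower. The 41 measured members had a median ratio of 0.03 and ran from -0.26 for Siglec1 to 0.49 for Rtn1. Beside Siglec1, at -0.26 (-0.41 to -0.12), Mertk stood at -0.25 (-0.35 to -0.15), Cd84 at -0.20 (-0.26 to -0.15) and Lyz2 at -0.19 (-0.20 to -0.18). Rtn1 (0.22 to 0.77), Cd86 at 0.42 (0.03 to 0.81), Fcgr4 at 0.33 (0.12 to 0.53) and Coro1a at 0.27 (0.19 to 0.36) lay on the other side. All 7 measured signalling members were above 0, between 0.06 and 0.23, as were 28 of the 41 measured members and 50.6% of all measured genes.

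The mimic comparisons asked how the knockout cells differ when miR-26a is returned to them. No member was at least 2-fold different in the mimic library over the negative control, where 0.855% of 12512 measured genes were higher and 0.352% lower, nor over the untransfected cells, where 0.263% of 12536 were higher and 0.471% lower. Both comparisons share the mimic library, and each shares its other library with the comparison above. The members' median was -0.05 over the negative control and -0.03 over the untransfected cells, against -0.0075 and 0.0017 for all measured genes. On deposited TPM the second median turned to 0.02, while that of all measured genes moved from 0.0017 to 0.045. Counting intervals lay wholly below 0 for 21 of 41 members over the negative control and wholly above 0 for 9. For all measured genes these shares were 18.8% below and 19.1% above, and intervals are narrower for abundant genes, as most members are. Over the untransfected cells 15 of 41 lay below and 6 above, against 17.4% and 17.3% of all genes.

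Aif1 and Itgal had the lowest ratios of the mimic library to the untransfected cells, and over the negative control Aif1 was lowest, with Gpr34, Itgal and Cd86 next. Aif1 was counted 387 times in untransfected, 449 times in negative-control and 224 times in mimic-treated knockout cells. Its ratio was -0.90 (-1.14 to -0.67) to the negative control and -0.85 (-1.10 to -0.62) to the untransfected cells. Itgal was counted 931, 971 and 581 times in the same order, with ratios of -0.64 (-0.80 to -0.49) and -0.75 (-0.90 to -0.60). The levels of Aif1 and Itgal before and after the negative control differed little, at 0.05 (-0.15 to 0.25) and -0.10 (-0.24 to 0.03). In the authors' deposited table Aif1 had a log2 ratio of -1.003 and a false discovery rate of 8.32e-15 for mimic against negative control, and it was the only member past 2-fold and 0.001 there.

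The scarce Gpr34 had a ratio of -0.65 (-1.30 to -0.05) to the negative control and -0.28 (-0.97 to 0.39) to the untransfected cells. Cd86 had a ratio of -0.61 (-1.02 to -0.22) to the negative control and -0.19 (-0.64 to 0.24) to the untransfected cells, and Fcgr4 had -0.50 (-0.71 to -0.30) and -0.18 (-0.40 to 0.05). Lyn had -0.39 (-0.46 to -0.32) and -0.19 (-0.27 to -0.11). For Hcls1 and Ncf4 the references gave closer values. Hcls1 had -0.25 (-0.32 to -0.17) and -0.24 (-0.31 to -0.17), and Ncf4 had -0.25 (-0.41 to -0.10) and -0.28 (-0.44 to -0.11). Cyba was lower against the untransfected cells, at -0.24 (-0.30 to -0.18), than against the negative control, at -0.07 (-0.14 to -0.01). Cd86, Fcgr4 and Lyn had been above 0 in the negative-control library over untransfected cells, at 0.42, 0.33 and 0.20. Folr2 was the highest member with either reference, at 0.28 (0.22 to 0.34) and 0.30 (0.23 to 0.36). Of its 1546 exon bases 975 are overlapped by Gm10602 on the opposite strand, and reads of this pair cannot be told apart without strand. Mertk and Siglec1, both lower after the negative control, had 0.22 (0.12 to 0.32) and 0.28 (0.13 to 0.42) over that control and -0.03 (-0.12 to 0.07) and 0.01 (-0.13 to 0.15) over the untransfected cells.

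**Figure D3:**
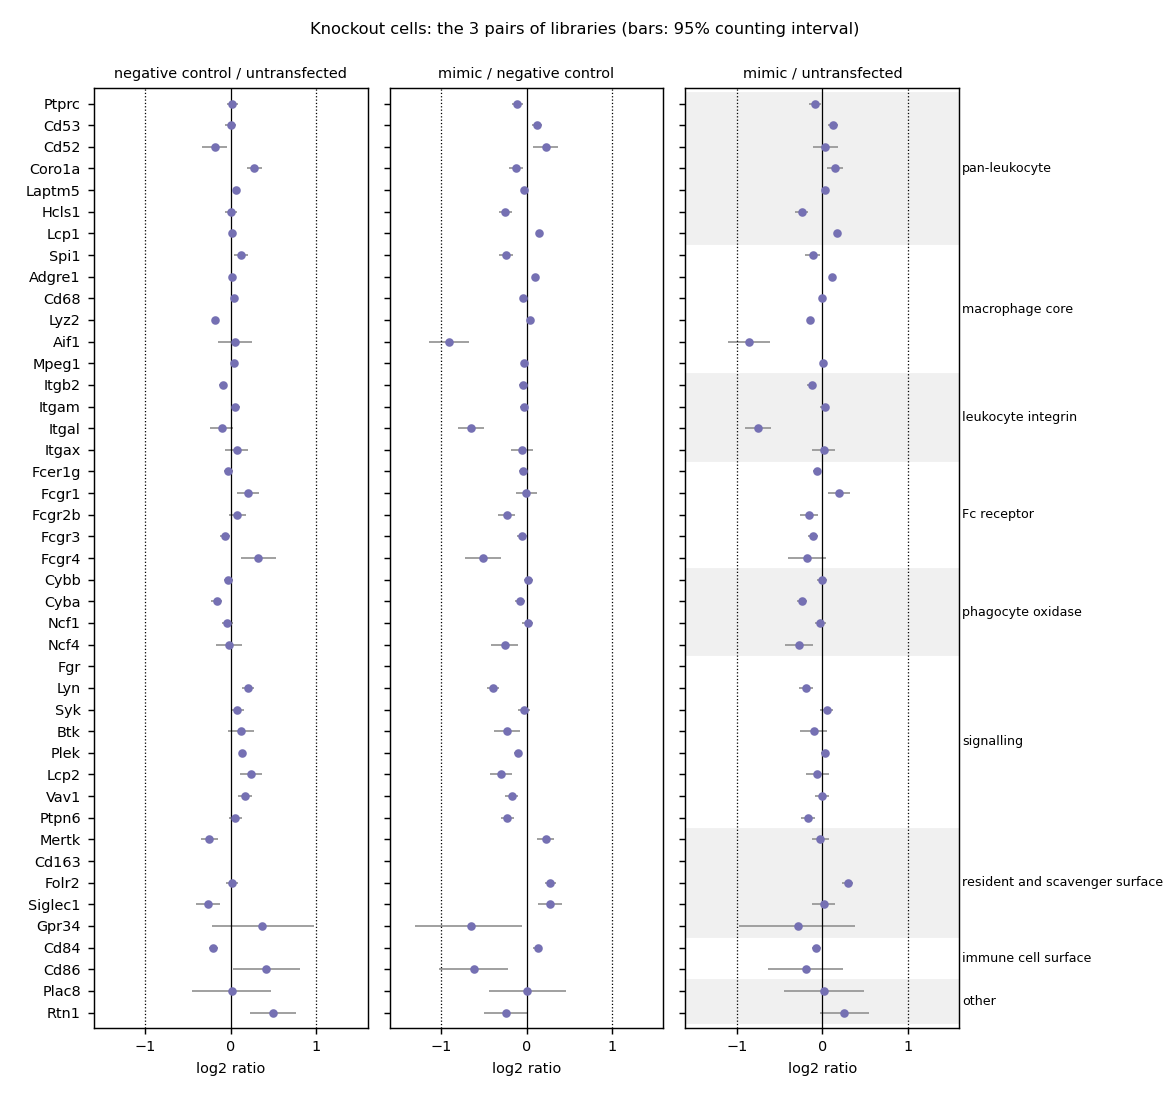
Log2 ratios of the 41 genes measured within the knockout cells for the 3 pairs of libraries, with 95% counting intervals as bars, where Fgr and Cd163 have no point because both lay under the minimum level. No point passes the dotted lines at 2-fold, and Aif1 and Itgal lie farthest to the left in both mimic panels apart from Gpr34 in the middle panel.

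The sequence of miR-26a and its sites in these genes are shown because the mimic carries this sequence. The negative control is a different reagent, a Silencer siRNA, so the mimic may differ from it in more than this sequence. MicroRNAs pair through bases 2 to 8, the seed, with transcripts, mostly in the 3' untranslated region. The mature strand, as RefSeq gives it for GRCm38.p6 at chr9:119031811-119031832 and chr10:126995543-126995564, both on the plus strand, is the guide strand of the mimic, with the seed in capitals.
mmu-miR-26a-5p: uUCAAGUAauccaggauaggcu

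The reverse complement of the seed, TACTTGA, was sought in the longest annotated 3' untranslated region of each gene (GENCODE M21, GRCm38). It was present in 5 of 43 members, 11.6%, and in 10.6% of the 15643 genes of the table with such a region. The median length of the region was 783 bases for the members and 1122 bases for all genes. The 5 sites follow 5' to 3' on the transcript with TACTTGA in capitals within a window of 30 bases, and none is followed by an A.
Itgal, plus strand of chr7:127334858-127334887: acgcccaaataaactTACTTGAgtgtgcta
Cd86, minus strand of chr16:36605036-36605065: tggatcaatctctccTACTTGAgatcagat
Lcp2, plus strand of chr11:34090943-34090972: catcccaaaatacagTACTTGAtacagtac
Rtn1, minus strand of chr12:72211777-72211806: atatttgcacttatgTACTTGAtactgaat
Cybb, minus strand of chrX:9436610-9436639: ttcggcctccattgcTACTTGAtatgtatc

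The members with a site did not move alike in the mimic library. Itgal was lower with both references, as given above, and Cd86 and Lcp2 were lower than the negative control, Lcp2 at -0.29 (-0.42 to -0.17). Over the untransfected cells Lcp2 stood at -0.06 (-0.20 to 0.08). Rtn1 stood at -0.24 (-0.50 to 0.02) and 0.25 (-0.03 to 0.54) in the same order. Cybb stood at 0.02 (-0.03 to 0.07) and -0.01 (-0.06 to 0.05). Aif1, the member with the lowest ratio of the mimic library to either reference, holds no such site in its longest region.

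Against the wild-type library the transfected knockout cells kept most of the difference. With the mimic, 18 of 42 members were called higher and 1, Fgr, lower, beside 5.82% and 7.69% of 12793 measured genes. In the negative-control library 25 were higher and Fgr was lower, beside 5.84% and 8.11% of 12782. These comparisons share the wild-type library with the first one. The members' medians were 0.94 and 1.16. Aif1 stood at 0.80 (0.48 to 1.14) with the mimic and at 1.71 (1.42 to 2.01) with the negative control, and Itgal at 1.89 (1.63 to 2.16) and 2.53 (2.29 to 2.80). Folr2 went the other way, at 1.04 (0.96 to 1.11) and 0.76 (0.68 to 0.83).

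Further genes of the same pathways, in lists also chosen with earlier results of these data known, were compared by their knockout ratio. Of all measured genes 5.91% were called higher and 7% lower in this comparison, which is the background for each list here. Outside the list, 7 of 15 measured macrophage genes were called higher and 0 lower, and their median was 0.97. The platelet factor 4 gene Pf4 had a ratio of 3.29 (2.87 to 3.78), the lipopolysaccharide co-receptor Cd14 had 2.31 (2.17 to 2.47) and the receptor gene Csf1r had 1.67 (1.62 to 1.72). Among genes that act beside the Fc receptors and integrins, 9 of 17 measured were called higher and 0 lower, and the median was 1.02. The adaptor genes Pik3ap1 at 1.51 (1.43 to 1.58), Lat2 at 1.34 (1.22 to 1.46) and Sla at 1.24 (1.05 to 1.43) led them. Blood cell genes of actin control and adhesion were higher for 7 of 14 members, with a median of 1.04. Among them were the parvin Parvg at 5.03 (4.34 to 6.05), Was, an activator of actin branching, at 1.28 (1.09 to 1.48) and the kindlin Fermt3 at 1.27 (1.16 to 1.37). Ubiquitous members of that list had smaller ratios, among them Itgb1 at 0.32.

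Partners of the oxidase and myeloid transcription factors were mixed. Of 6 measured oxidase genes the GTPase gene Rac2 was higher, at 1.19 (1.07 to 1.30), and the broadly expressed Rac1 stood at 0.05. Nox4, an oxidase of stromal cells, was lower, at -1.09 (-1.23 to -0.95), as was the scarce Duox1. This list had 5 measured genes in pairs without the wild-type library. Duox1 may thus have passed the minimum level through wild type alone. Of 10 measured transcription factors Irf5, at 1.42 (1.28 to 1.56), and Ikzf1, at 1.13 (0.95 to 1.32), were higher, while Runx1, at -1.03 (-1.12 to -0.95), and Nr1h3, at -1.02, were lower. The factors Cebpa and Cebpb stood at -0.06 and -0.03, and the median of the 10 was 0.11.

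Markers of other blood cells were scarce. T cell markers summed to between 0.73 and 1.07 TPM over the 3 genes of 8 found in the table, B cell markers to at most 0.17 TPM over 4 of 5, NK cell markers to at most 0.48 TPM over 2 of 5 and mast cell markers to at most 0.39 TPM over 3 of 7. The other genes of these lists are not analysed here. Neutrophil markers summed to between 2.70 and 6.07 TPM over 4 of 9 genes, of which Csf3r, a gene also known in monocytes, made up 1.94, 4.19, 3.17 and 3.71 TPM. Dendritic cell markers summed to at most 2.42 TPM over 4 of 7 and endothelial markers to at most 4.49 TPM over 5 of 5. Erythroid and platelet markers summed to 17.0, 136.8, 158.7 and 142.5 TPM over 6 of 7, of which Pf4, also in the macrophage list above, made up 15.3, 136.0, 156.4 and 141.7 TPM. Osteoclast markers, which share the myeloid lineage, summed to 629.3, 404.8, 400.2 and 407.5 TPM, a sum highest in the wild-type library, unlike the myeloid genes. Ctsk, at -0.66 (-0.72 to -0.60), was the main contributor to this sum, and Acp5 stood at -0.95 (-1.25 to -0.66). Of the 4 measured osteoclast genes, however, 2 were above 0 and 0 were called, with a median of -0.29. Among the 17 fibroblast markers, 9 were called lower and 0 higher, beside 7% and 5.91% of all measured genes. Their median was -1.05, and Lum, Dpt and Fap stood at -2.67, -2.60 and -2.07.

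**Figure D4:**
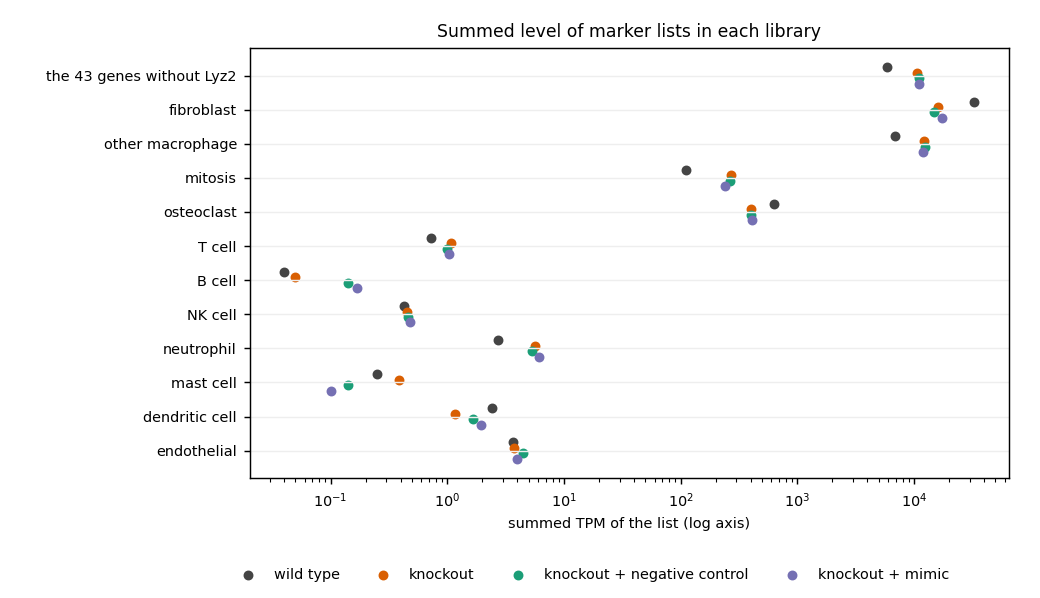
Summed TPM (log axis) of the 43 genes without Lyz2 and of marker lists in the wild-type, knockout, negative-control and mimic libraries, 1 point per library. The 43 genes, the list of other macrophage genes and the mitosis list are lowest in the wild-type library, the fibroblast and osteoclast lists are highest there, and the lymphocyte, NK cell and mast cell lists stay at or below 1.07 TPM.

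Promoters were examined because the genes stood together and PU.1 is known to bind sites with the core GAGGAA. RefSeq windows of 300 bases, from 250 before to 50 after an annotated start (GRCm38.p6), were found for 33 of 43 members. GAGGAA or its reverse complement TTCCTC was present in a window of 19 of the 33 genes, 57.6%, and of 30.7% of the 12776 genes of the table with a window. By window the shares were 20 of 42, 47.6%, against 27%. A match is only a run of letters, and binding was not measured. The windows of the 4 members with more than 1 match follow on the gene's strand, with matches in capitals.
Itgam, plus strand of chr7:128062390-128062689: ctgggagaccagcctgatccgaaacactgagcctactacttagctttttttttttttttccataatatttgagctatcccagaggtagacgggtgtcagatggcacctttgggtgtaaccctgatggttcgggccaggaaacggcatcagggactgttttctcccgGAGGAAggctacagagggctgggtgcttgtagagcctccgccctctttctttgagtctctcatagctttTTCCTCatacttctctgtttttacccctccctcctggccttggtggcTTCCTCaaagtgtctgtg
Cd53, minus strand of chr3:106790100-106790399: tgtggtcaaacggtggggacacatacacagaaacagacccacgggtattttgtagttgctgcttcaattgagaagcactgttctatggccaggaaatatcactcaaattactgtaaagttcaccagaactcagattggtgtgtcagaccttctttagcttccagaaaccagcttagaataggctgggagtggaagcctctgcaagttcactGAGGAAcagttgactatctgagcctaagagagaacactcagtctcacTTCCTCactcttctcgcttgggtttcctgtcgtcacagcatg
Cd68, minus strand of chr11:69666121-69666420: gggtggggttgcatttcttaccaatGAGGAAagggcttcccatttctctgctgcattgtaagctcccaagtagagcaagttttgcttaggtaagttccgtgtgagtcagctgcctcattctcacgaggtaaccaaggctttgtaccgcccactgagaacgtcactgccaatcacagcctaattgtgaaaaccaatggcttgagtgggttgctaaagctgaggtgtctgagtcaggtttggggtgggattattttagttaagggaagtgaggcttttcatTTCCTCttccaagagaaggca
Plac8, minus strand of chr5:100572156-100572455: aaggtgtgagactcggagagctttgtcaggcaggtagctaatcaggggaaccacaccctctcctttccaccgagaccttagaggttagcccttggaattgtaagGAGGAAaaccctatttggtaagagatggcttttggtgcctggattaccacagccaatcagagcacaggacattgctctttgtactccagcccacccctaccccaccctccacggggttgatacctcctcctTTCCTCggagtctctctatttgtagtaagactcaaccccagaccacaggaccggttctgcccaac

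In these 4 windows the match nearest to the annotated start lay 15 bases from it in Itgam and Plac8, 8 in Cd53 and 29 in Cd68. Large and small knockout ratios were found on both sides. Among genes without a match were Hcls1 at 1.69 and Fcer1g at 1.16 as well as Lyz2 at 0.49 and Mpeg1 at 0.35, and among those with a match were Plac8 at 3.72 and Fcgr1 at 2.07 as well as Cybb at 0.74 and the lower Fgr.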

How the data were processed

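RNA of 4 cultures was sequenced, 1 library per group. Bowtie2, HISAT and FastQC and the builds mm10 and GRCm38.p6 appear in the submitters' processing notes with no version or role, while quantifier, annotation and strand setting were not given in the sources used here. Per the file headers, the deposited read counts are estimated counts not scaled by library size (between 4.99% and 5.28% have decimals), and TPM and FPKM are the authors' length-scaled values. A deposited signal of normalized counts was read only to see how it was made. The authors' second table covers 4 library pairs and holds, per the file headers, PoissonDis log2 ratios, each with a p-value and a false discovery rate.

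From these, TMM factors (edgeR) of 0.978, 1.0, 1.02 and 0.997 scaled the counts, and log2 ratios took a prior of 1 count scaled to library size. Counts were rounded to whole numbers for exact conditional binomial (Clopper-Pearson) intervals at 95%. Depth differed little, so each gene's own count sets its precision, and the floor of 3 counts is between 0.151 and 0.170 CPM. The procedure was tested on simulated counts. The members and the 20 other gene lists were chosen with earlier results of these data known. Values in every library were given for up to 4 members per role by size of ratio, for members called in any other comparison and for the 5 most abundant, and of each other list for up to 3 genes by size of ratio with at least 5 TPM; further genes were named after their values were seen. A gene that this rule names is not reported here. All 43 members matched RefSeq symbols. Protein sequences were not used here. Alternatives were other scalings, TPM, priors of 0.25 and 5, minimum levels of 0 and 5 CPM, 1.5-fold, and the authors' calls. Scaling used edgeR 4.0.16 and DESeq2 1.42.0 under R 4.3.3. All else ran in Python 3.11.15 on pandas 2.3.3, numpy 2.4.6 and scipy 1.17.1, and matplotlib 3.10.9 drew the figures.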

Additional observations from a re-analysis of the deposited data

How the results depend on the processing

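Counts of members called higher between knockout and wild type ranged from 19 to 24 over the scalings, priors, minimum levels and the authors' calls, beside 23. At 1.5-fold 36 were higher, against 11.3% of all measured genes. With the mimic over wild type 36 were also higher at 1.5-fold, against 11.4% of all measured genes. At 5 CPM the lower member, Fgr, was lost in the 3 comparisons with wild type, leaving 0. Over the negative control the mimic library had 4 members lower at 1.5-fold (Aif1, Itgal, Gpr34 and Cd86), against 1.68% of all measured genes. By the authors' calls 1 member was lower in that pair, against 0.208% of all measured genes. Over untransfected cells 2 members were lower at 1.5-fold, against 1.80% of all measured genes. With no minimum level 1 member, Cd163, was higher over untransfected cells, against 0.439% of all genes. Medians moved for the negative control over untransfected cells, beside 0.035, to 0.060 with total counts, 0.087 on deposited TPM plus 0.1 and 0.20 in the authors' deposited table. For the mimic over the negative control the authors' median was -0.15, beside -0.05. The authors' ratios of all genes had medians of 0.17 and -0.10 in these pairs. On TPM the medians over wild type were 0.84 for the mimic and 1.07 for the negative control. No called value changed sign. On TPM the split of all genes for the mimic over untransfected cells was 0.295% higher and 0.343% lower, beside 0.263% and 0.471%. The authors' table was used for 4 of 6 pairs. No replicate could be left out, and few reads limit Fgr, Gpr34, Plac8 and Cd163.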

Other observations

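Antigen presentation genes did not stand with the Fc receptors and integrins. MHC class II chains were scarce in all libraries, with Cd74 between 1.34 and 1.96 TPM, H2-Ab1 between 1.11 and 1.92 TPM and H2-Aa between 0 and 0.13 TPM, while the loading factor gene H2-DMb1 had 35.3, 36.1, 41.1 and 35.1 TPM in wild type, knockout, negative control and mimic. Costimulatory genes were mixed between knockout and wild type, with Cd83 at a log2 ratio of 1.72 (1.44 to 2.01), Icosl at 1.61 (1.13 to 2.15) and Cd80 at -0.17 (-0.31 to -0.03).

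A further list of resident macrophage genes held surface markers and also the ligand gene Gas6 and the receptor genes Axl and Tyro3. Of its 6 measured genes 2 were above 0 in the knockout over the wild-type library, with a median log2 ratio of -0.46. The call was higher for 1 and lower for 1, beside 5.91% and 7% of all measured genes. Gas6 and Tyro3 were among those below 0, so the median does not describe the surface markers alone. The summed level of the list was 2309.6, 1333.5, 1209.9 and 1206.4 TPM, highest in wild type, but most of this sum was the single gene Gas6, given below. Monocyte markers were below 0 for all 3 measured genes, with a median of -1.0, at the limit of 2-fold. The call was lower for 2 of these 3, against 7% of all measured genes. The list was scarce, with a sum of 20.98, 8.41, 10.19 and 9.31 TPM over 5 of 7 genes. Ly6c2 and Ccr2, which mark circulating inflammatory monocytes, were at no more than 0.01 and 0.28 TPM. The fractalkine receptor Cx3cr1 had 3.17, 20.2, 23.6 and 26.6 TPM, a log2 ratio of 2.77 (2.47 to 3.10) for knockout over wild type. The complement receptor Vsig4 had 3.06, 0.35, 0.08 and 0.26 TPM, a ratio of -2.72 (-4.95 to -1.49). The resident macrophage list had 6 measured genes in pairs with the wild-type library and 5 in pairs without it. Scarce outside wild type, Vsig4 may have passed the minimum level through that library alone, so its call may follow in part from that minimum. Of the monocyte genes Ace stood at -2.35 and Nr4a1 at -1.0. Gas6, the ligand of Mertk, had 2044.2, 1056.3, 889.6 and 886.8 TPM and a ratio of -0.82 (-0.84 to -0.80), whereas its receptors Axl and Tyro3 stood at 0.23 (0.19 to 0.28) and -0.62. All are values of 1 library per group with counting intervals only.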
